A study of Mus musculus with 2 samples.

Results

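The barcodes described here were those in which more than 10% of all unique molecular identifiers (UMIs, counts of captured RNA molecules) came from the 13 genes whose symbols start with mt-, the protein genes of the mitochondrial genome. A minimum of 500 UMIs was also set, and it removed no barcode, since 500 was the lowest total in the deposited matrices. The rule took 2372 of 12865 barcodes, which were 1653 of 7314 from NRS and 719 of 5551 from aCXCR2. Because the mitochondrial share chose these barcodes, that share is given as a description and is read as no finding, and a barcode is not taken to be an intact cell. All mice were C57BL/6 and had zymosan, a yeast cell wall preparation, injected into the eye. The mice also received an antiserum, which was NRS in the NRS group, an abbreviation the labels do not spell out, and aCXCR2, named for the chemokine receptor CXCR2, in the other group. The labels give no age, time or number of animals for either library. Cells in the vitreous fluid and in a rinse of the retina were enriched with magnetic beads for Ly6G, a neutrophil surface antigen, and captured with the 10x Chromium 3′ kit. Each group was 1 library, so no comparison has a replicate, no test was made, and the 95% intervals cover counting error only.

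Mitochondria carry their own small genome, which encodes core subunits of the respiratory chain and of ATP synthase, while most subunits are encoded in the nucleus. When a cell membrane breaks, cytosolic RNA can be lost while RNA inside mitochondria is retained, so a high mitochondrial share is widely used to screen out damaged cells, but cells with many mitochondria also have a high share. Rod photoreceptors pack mitochondria densely into the inner segment, next to the outer segment that holds the proteins of light detection. Neutrophils hold few mitochondria and depend largely on glycolysis. The long noncoding RNAs Malat1 and Neat1 stay in the nucleus, so their level can be set beside that of cytosolic messages.

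The kit reads the 3′ ends of polyadenylated RNA, and the ends of 4 mitochondrial genes that the results below turn on are therefore shown, as the last 30 bases of each gene, 5′ to 3′ on the coding strand, from the GENCODE vM21 annotation on GRCm38. All 13 mt- genes matched this annotation. Capitals mark the stop codon or, where the annotated gene ends inside a codon, the base beyond the last full codon. That is so for 3 of the 13 genes, mt-Co3, mt-Cytb and mt-Nd4, and such stops are known to be completed by the poly(A) tail. mt-Co1 (chrM:5328-6872, + strand) and mt-Co3 (chrM:8607-9390, + strand) encode subunits of cytochrome c oxidase, mt-Cytb (chrM:14145-15288, + strand) encodes cytochrome b of complex III, and mt-Nd6 (chrM:13552-14070, − strand), a complex I subunit, is the 1 gene of the 13 encoded on the other strand.
mt-Co1: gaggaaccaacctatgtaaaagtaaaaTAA
mt-Co3: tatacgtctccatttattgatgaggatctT
mt-Cytb: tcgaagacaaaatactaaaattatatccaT
mt-Nd6: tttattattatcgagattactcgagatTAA

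The libraries shared 101 barcode sequences, and this touches the rod and cone values most. Of the barcodes above 10%, 43 in NRS and 42 in aCXCR2 carried a sequence that was also present in the other library, and 37 sequences were above 10% in both. In 82 of the 101 pairs the NRS barcode was at least 10 times deeper, with a median of 72869 UMIs (48035 to 200305) against 679.5 UMIs (505 to 1942) in aCXCR2. The aCXCR2 barcode then held 0.727 to 1.17% of the UMIs of its NRS partner, its mitochondrial share lay within 4.61 percentage points of the partner's, and 71 of the 82 were rod-like in aCXCR2. In 8 pairs the aCXCR2 barcode was the deeper by 10 times or more. Of the rod-like barcodes above 10%, 36 of 129 in aCXCR2 (15.1% of their UMIs) and 29 of 796 in NRS (22.0% of their UMIs) were shared. A part of the rod values is therefore also given without them, and the others include them. Among neutrophil-like barcodes above 10% none of 27 in NRS and none of 66 in aCXCR2 were shared, and among macrophage-like ones none of 39 and 1 of 81.

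**Figure D1:**
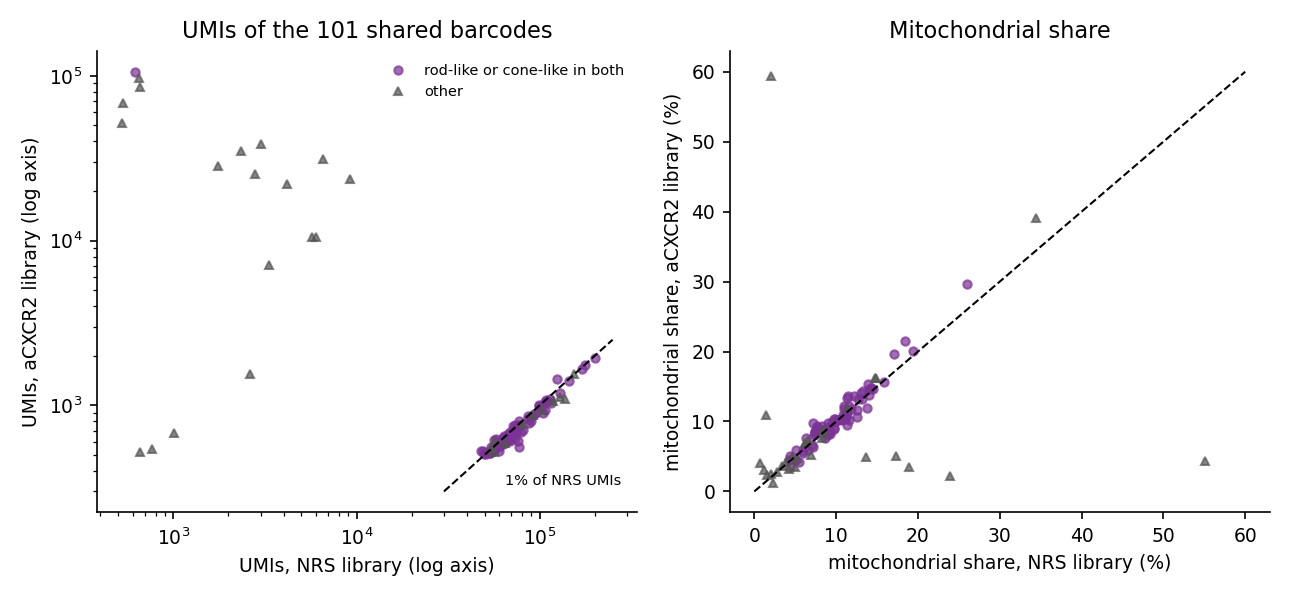
The plot of shared barcodes sets the 101 sequences present in both libraries by their UMIs (left, log axes) and by their mitochondrial share (right, percent), with NRS on the horizontal and aCXCR2 on the vertical axis, and circles for barcodes rod-like or cone-like in both libraries. On the left 82 points lie along the dashed line at 1% of the NRS UMIs (0.727 to 1.17%), and on the right most points lie near the dashed line of equal shares.

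Across the whole series the NRS library held 61386486 UMIs with a median of 4649 per barcode, and the aCXCR2 library 85748842 with a median of 9182. The label calls the cells Ly6G+, and Ly6g transcript was low in both sets of NRS barcodes, at 1.57 CPM (16 UMIs) above 10% and 5.25 CPM at or under it, against 36.9 and 37.6 CPM in aCXCR2. CPM here is the usual scaled count of a gene, with only nuclear-gene UMIs in the total. Marker lists for T or NK cells, B cells, dendritic cells and mast cells or basophils summed to between 0 and 71.4 CPM in the barcodes above 10%, with no mast cell or basophil marker detected there.

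Barcodes above 10% were 22.6% of the NRS library (21.6 to 23.6%) and 13% of the aCXCR2 library (12.1 to 13.9%), shares that the bead enrichment can set. They held 22.5% of all NRS UMIs and 65.8% of its mitochondrial UMIs, against 4.57% and 32.9% in aCXCR2. In NRS they were spread widely over the mitochondrial share, with 204 barcodes from 10 to 12%, 252 from 12 to 15%, 242 from 15 to 20%, 246 from 20 to 30%, 191 from 30 to 50%, 154 from 50 to 70% and 364 (22.0%) above 70%. In aCXCR2 the same ranges held 66, 82, 65, 74, 78, 77 and 277 barcodes, so that 38.5% lay above 70%. The barcodes nearest to the limit were a rod-like NRS barcode of 1899 UMIs at 10.005% just inside it, and an unnamed NRS barcode of 4420 UMIs at exactly 10% just outside it. In aCXCR2 these were an unnamed barcode at 10.008% and a neutrophil-like barcode at 9.97%.

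Once mitochondrial UMIs were left out, barcodes above 10% were shallower than the rest. Their median number of nuclear-gene UMIs was 2302 in NRS and 692 in aCXCR2, against 4657 and 10122.5 at or under 10%. At equal depth they were no poorer in genes. After thinning each barcode to 300 nuclear-gene UMIs the median number of genes was 245.5 above and 224.1 at or under 10% in NRS, and 228.9 and 208.0 in aCXCR2. This left out 194 NRS and 217 aCXCR2 barcodes above 10% that were too shallow, and none of the rest. Without thinning the medians were 1258 genes above and 1846 at or under 10% in NRS, and 477 and 2606 in aCXCR2. Within rod-like barcodes the thinned medians were 252.4 above and 254.7 at or under 10% in NRS, and 258.5 on both sides in aCXCR2.

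**Figure D2:**
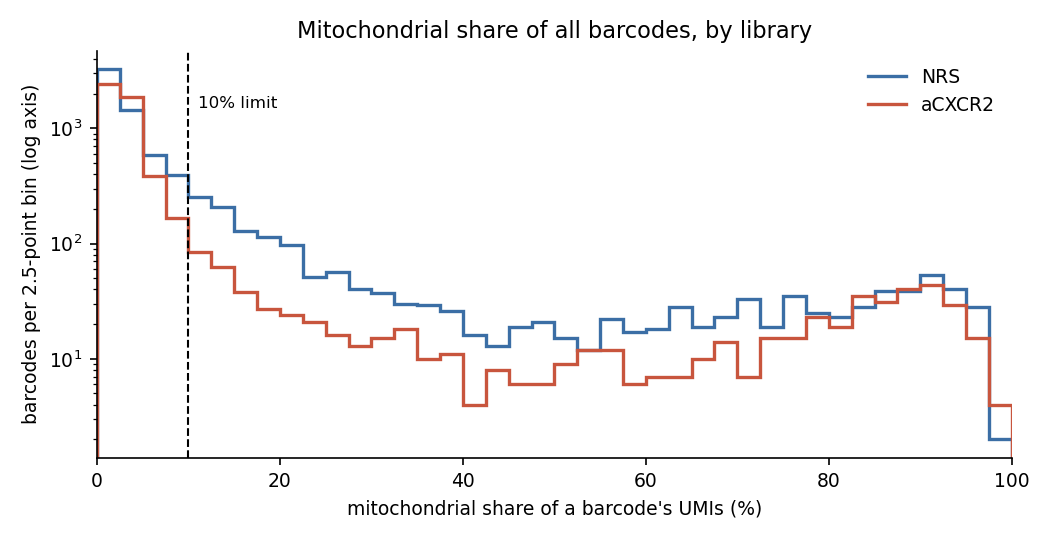
The plot of the mitochondrial share shows the number of barcodes of each library (vertical axis, log scale) in each 2.5-point bin of the percentage of UMIs in mt- genes (horizontal axis), with the 10% limit as a dashed line. Beyond the limit both lines go down and come up again at high shares, where 364 NRS and 277 aCXCR2 barcodes lie above 70%.

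Rod genes were the leading nuclear transcripts of the barcodes above 10% in NRS, and were far higher there than in the rest of either library. The 19 rod markers summed to 78552 CPM above 10% and 15772 CPM at or under it in NRS (log2 ratio 2.32), and to 24167 and 1724 CPM in aCXCR2 (3.81). Gnat1, the rod transducin alpha subunit, stood at 4873 against 890.6 CPM in NRS and 1443 against 66.3 CPM in aCXCR2. Sag, the rod arrestin, which ends the light signal, was at 12937 against 3159 CPM in NRS and 3417 against 241.5 CPM in aCXCR2. All 19 rod markers had positive log2 ratios in both libraries, where 22.7% of 4501 genes in NRS and 18.1% of 3897 in aCXCR2 were at least 2-fold higher above 10%. Rod markers took more than 1% of nuclear-gene UMIs in 1239 barcodes above 10% in NRS (75%, against 22.5% of the rest) and in 186 in aCXCR2 (25.9%, against 6.71%). Gnat1 was also found in neutrophil-like barcodes, at 294 CPM above and 113.9 CPM at or under 10% in NRS, and at 21.5 and 10.2 CPM in aCXCR2, so a low rod level does not mark a rod.

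Cone genes were higher above 10% as well, but few barcodes carried them. Opn1sw, the short-wavelength cone opsin, stood at 105 against 19.4 CPM in NRS (log2 ratio 2.44), and Pde6h, a subunit of the cone phosphodiesterase, at 214.5 against 60.3 CPM (1.83). Gngt2, a transducin gamma subunit in the cone list, was lower above 10%, at 160 against 243 CPM, and it was detected in 39.5% of all NRS barcodes at or under 10%. The 13 cone markers summed to 2359 against 912 CPM in NRS and 832 against 418 CPM in aCXCR2, where Opn1sw rested on 10 UMIs above 10% and Arr3, cone arrestin, on 2. Without the barcodes present in both libraries the log2 ratio of this sum was 1.47 in NRS, where it was 1.37 with them, and 0.86 in aCXCR2, where it was 0.99.

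Leukocyte genes separated the libraries. The 15 neutrophil markers summed to 5491 CPM above and 20448 CPM at or under 10% in NRS (log2 ratio -1.90), but to 56163 and 56436 CPM in aCXCR2 (-0.01). S100a8, a subunit of calprotectin and the most abundant neutrophil marker, stood at 2104 against 8063 CPM in NRS and at 24711 against 24597 CPM in aCXCR2. The 16 monocyte or macrophage markers summed to 5392 against 32363 CPM in NRS (-2.59) and 19814 against 39775 CPM in aCXCR2 (-1.005). Lyz2, lysozyme, stood at 1845 against 14617 CPM in NRS and 6846 against 17957 CPM in aCXCR2, while Mrc1, the macrophage mannose receptor, was at 123 against 124 CPM in aCXCR2. At least 2-fold lower above 10% were 17.4% of the genes in NRS and 2.44% in aCXCR2. These contrasts are between whole sets of barcodes that hold different cell types, and a change of mixture and a change within cells cannot be told apart in them.

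Clustering without the mitochondrial genes put names on part of the barcodes. Barcodes with at least 200 nuclear-gene UMIs from both libraries were clustered together into 24 clusters, which were called X-like from marker lists. Rod-like clusters held 796 of the 1653 NRS barcodes above 10% (48.2%, 45.7 to 50.6%) and 129 of the 719 in aCXCR2 (17.9%), or 13.7% in aCXCR2 without the barcodes present in both libraries. The NRS rods lay mostly in clusters 2 (445), 15 (243) and 14 (108), and the aCXCR2 rods in clusters 14 (67) and 2 (56). Neutrophil-like clusters held 27 NRS (1.63%) and 66 aCXCR2 barcodes (9.18%), and macrophage-like clusters 39 (2.36%) and 81 (11.3%). Cone-like barcodes numbered 24 in NRS, 8 of them shared with aCXCR2, and 1 in aCXCR2. Pigment epithelium-like barcodes numbered 27 and 12, and lens-like ones 13 and 0. A further 629 NRS and 263 aCXCR2 barcodes lay in unnamed clusters, and 98 (5.93%) and 167 (23.2%) had under 200 nuclear-gene UMIs and were not clustered. Of the barcodes at or under 10%, rod-like clusters held 13.8% in NRS and 4.16% in aCXCR2, neutrophil-like ones 14.8 and 44.8%, and macrophage-like ones 6.98 and 30.9%. Unnamed clusters there held 3531 NRS barcodes (62.4%) and 948 aCXCR2 barcodes (19.6%), so the named classes cover a minority of these NRS barcodes.

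The leukocyte numbers depended on how names were given, and no single number is preferred. When the barcodes above 10% were clustered by themselves, neutrophil-like ones were 216 in NRS and 82 in aCXCR2, and macrophage-like ones 159 and 218. Of these 216 NRS barcodes, 171 came from a group whose rod markers took at least as large a share as its neutrophil markers. When each barcode took the name of the marker list with the largest share of its UMIs, the numbers were 119 and 167 neutrophil, 193 and 192 macrophage, and 1032 and 142 rod. Rods clustered by themselves were 689 in NRS and 109 in aCXCR2. Rods were the most numerous named class in NRS under all 3 namings. In aCXCR2, of these 3, they were so only with the shared clusters. The macrophage-like share of aCXCR2 was larger when the shared clustering was run at other resolutions, and smaller with libraries clustered separately. The order in aCXCR2 is therefore given for these 3 namings only.

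The share of a named class that lay above 10% differed widely between classes, with the 4160 NRS and 1211 aCXCR2 barcodes of unnamed clusters left out. In NRS it was 50.4% of rod-like barcodes (796 of 1580), 49.0% of cone-like ones (24 of 49), 77.1% of pigment epithelium-like ones (27 of 35), 14% of lens-like ones (13 of 93), 8.99% of macrophage-like ones (39 of 434) and 3.12% of neutrophil-like ones (27 of 865). In aCXCR2 it was 39.1% of rod-like barcodes (129 of 330), 44.4% of pigment epithelium-like ones (12 of 27), 5.14% of macrophage-like ones (81 of 1576) and 2.96% of neutrophil-like ones (66 of 2229). Rod-like and pigment epithelium-like barcodes thus stood above both leukocyte classes in both libraries, by more than the counting intervals. Without shared barcodes 93 rod-like aCXCR2 barcodes lay above 10% and 165 at or under it. The pigment epithelium markers themselves, over all barcodes, were not higher above 10%. They summed to 34.5 CPM above and 178 CPM at or under 10% in NRS, and to 31.8 and 34.2 CPM in aCXCR2. Within the rods, cluster 15, whose leading genes included Pdc and Pde6g, had 243 of 338 NRS barcodes above 10% (71.9%), cluster 2, led by Arl6 and Glo1, had 445 of 981 (45.4%), and the shallow cluster 14 had 108 of 261. None of the 15 barcodes of an erythroid cluster led by Hbb-bs was above 10%.

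**Figure D3:**
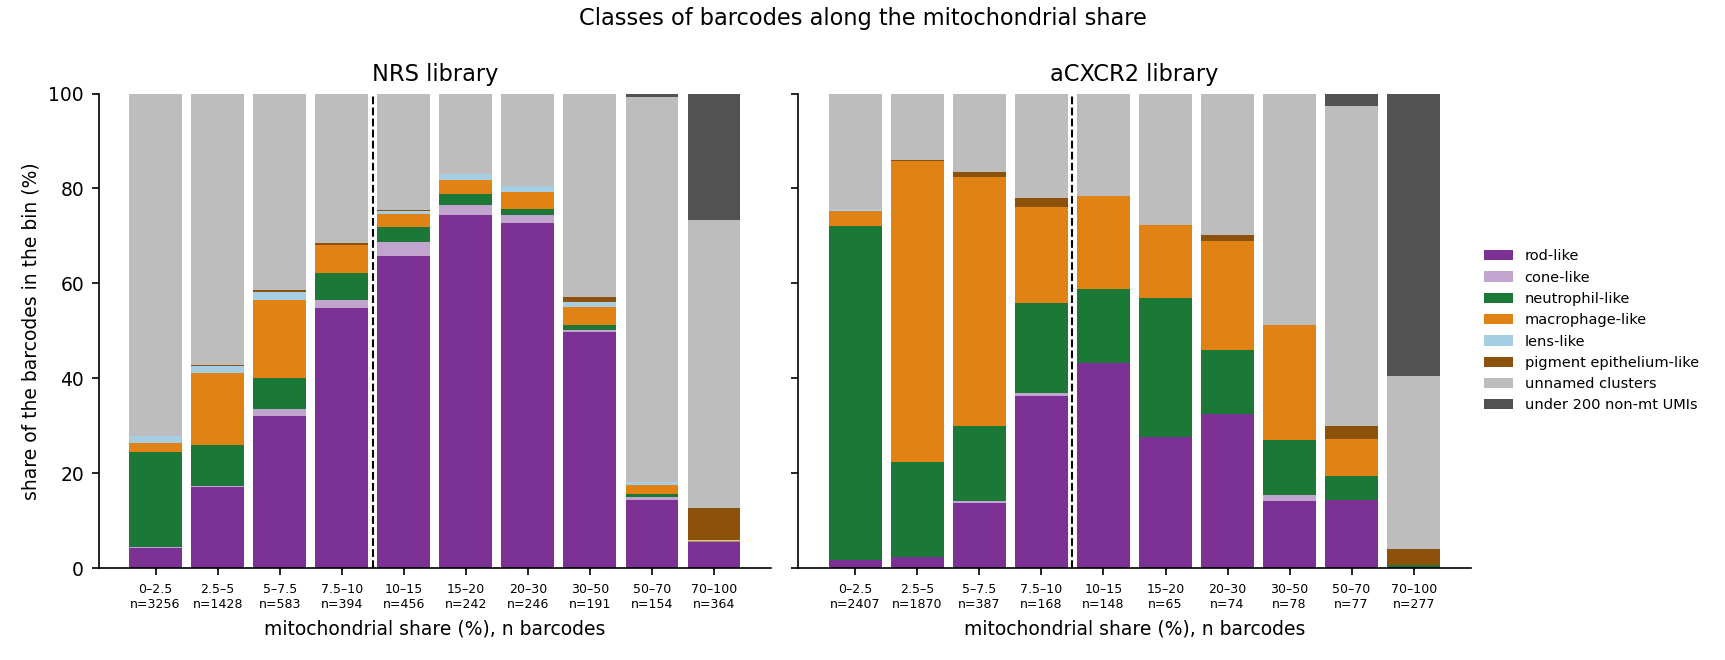
The plot of classes along the mitochondrial share stacks the percentage of barcodes in each class (vertical axis) for successive ranges of the mitochondrial share (horizontal axis, with the number of barcodes), NRS on the left and aCXCR2 on the right, the dashed line marking 10%. In NRS the rod-like part is widest from 15 to 30%, at 180 of 242 barcodes from 15 to 20% and 179 of 246 from 20 to 30%, and is down to 20 of 364 above 70%.

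Identity changed along the mitochondrial share. Rod-like barcodes were 137 of 3256 NRS barcodes at or under 2.5%, 300 of 456 from 10 to 15%, 180 of 242 from 15 to 20%, 179 of 246 from 20 to 30%, 95 of 191 from 30 to 50% and 20 of 364 above 70%. In aCXCR2 they were 42 of 2407 at or under 2.5%, 64 of 148 from 10 to 15%, 18 of 65 from 15 to 20% and 24 of 74 from 20 to 30%. Neutrophil-like and macrophage-like barcodes were 19 and 10 from 15 to 20%, and 10 and 17 from 20 to 30%. Most barcodes above 70% had no name. Of 364 in NRS and 277 in aCXCR2, 97 and 165 had under 200 nuclear-gene UMIs, and 221 and 101 lay in unnamed clusters. Pigment epithelium-like ones were 24 and 9. When the barcodes above 10% were clustered by themselves, the named groups with the highest median shares were pigment epithelium-like and lens-like, ahead of a macrophage-like group led by Fabp5 at 82.3%. Pigment epithelium-like barcodes, led by the transthyretin gene Ttr, the transferrin gene Trf, Ptgds and the retinal G-protein-coupled receptor gene Rgr, had a median mitochondrial share of 95.5% (27 NRS and 10 aCXCR2 barcodes). Their median total of 8961 UMIs held 503 from nuclear genes. Their deepest NRS barcode had 30783 UMIs at 96.7% mitochondrial, of which 1005 were nuclear, but it had 1 Ttr UMI and its leading nuclear genes included Fth1 and Tmsb4x, so it carried little that marks its class. Lens-like barcodes, led by the crystallin genes Crybb2, Cryaa and Crygb, had a median share of 84.9% (53 and 6 barcodes). This share depended on the clustering. Of these 59 barcodes 45 lay in the unnamed cluster 10 of the shared clustering and 9 in its lens-like cluster, whose 13 NRS barcodes above 10% had a median share of 20.1%. Averaged over the 59 barcodes, rod markers took 3.93% of nuclear-gene UMIs and lens markers 2.22%. In the 13 NRS barcodes rod markers summed to 107551 CPM and lens markers to 14070 CPM. Rod markers thus outweighed lens markers in both sets, and the lens name is not certain for either.

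The unnamed barcodes lay mainly in 2 clusters of the shared clustering. Cluster 8 held 137 of the 263 unnamed aCXCR2 barcodes above 10% and 130 of the 629 in NRS. Its leading genes included the chemokine receptor gene Cx3cr1, Fabp5, Prdx1, the haem oxygenase gene Hmox1 and the ferritin gene Ftl1, and macrophage markers scored highest in it without reaching the rule for a name. Cluster 10 was led by Crym, Nupr1, Cryab, Nefl and Dbi and also by Glul, glutamine synthetase, and it had 333 of 426 NRS barcodes (78.2%) and 58 of 72 aCXCR2 barcodes (80.6%) above 10%. It stayed unnamed because Müller glia and astrocyte markers both scored in it. Clustered by themselves, the barcodes above 10% split this material into a group led by Crym, by the metallothionein genes Mt1 and Mt2, and by Rlbp1, which encodes a retinaldehyde-binding protein of Müller glia and pigment epithelium (203 NRS and 37 aCXCR2 barcodes, median share 50.5%), and a group led by Nefl, a neurofilament gene, and Camk2n1 (98 and 22, median share 68.7%). In the Nefl group this gene stood at 3088 CPM, averaged over barcodes, against 35.1 CPM in the other barcodes above 10%. Another group, led by the mucin gene Muc4, by Gsto1 and by the protease gene Prss27, held 24 and 15 barcodes at a median share of 75.6%. Muc4 had at least 1 UMI in 84.6% of the barcodes of that group, at a median of 325 nuclear-gene UMIs, and in 0.214% of all other barcodes above 10%.

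Macrophage-like barcodes above 10%, clustered by themselves, formed groups that differed in Malat1. The first was led by Pid1, Zeb2, which encodes a zinc finger repressor, and the scavenger receptor gene Stab1, and held 70 NRS and 135 aCXCR2 barcodes at a median mitochondrial share of 24.9%. Malat1 took a median of 7.11% of its nuclear-gene UMIs. The second was led by Fabp5, a fatty acid-binding protein gene, by Prdx1, Ftl1 and Arg1, and held 89 and 83 barcodes at a median share of 82.3%, with Malat1 at 0.669%. Its barcodes had a median of 396.5 nuclear-gene UMIs, with macrophage markers at a median of 2.35% and neutrophil markers at 0.878%. In the barcodes under 200 nuclear-gene UMIs, which were given no class, these medians were 2.80 and 2.16%. Fabp5, Arg1, Pf4 and C1qb were among the leading genes of both, so the macrophage name of the second group is weak. Ferritin genes were high in the second, with Fth1 at 65464 CPM and Ftl1 at 30038 CPM averaged over barcodes. A further unnamed group of 42 NRS and 40 aCXCR2 barcodes, at a median share of 17.1%, had Malat1 at 11.3% and the nuclear-retained Neat1 at 4795 CPM, against 812 CPM in the other barcodes above 10%.

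Neutrophil-like barcodes clustered by themselves also formed separate groups, which were filled unequally by the libraries. The group led by the calprotectin genes S100a8 and S100a9 and by Retnlg held 45 NRS and 74 aCXCR2 barcodes, with S100a8 at 61656 CPM averaged over barcodes. The group led by Hcar2, a hydroxycarboxylic acid receptor gene, the chemokine gene Ccl3, Ccrl2 and the protease inhibitor gene Slpi held 171 NRS and 8 aCXCR2 barcodes, and its barcodes carried rod markers at a median of 1.02% of nuclear-gene UMIs. Its neutrophil markers were at a median of 0.987%, and averaged over barcodes rod markers took 3.39% and neutrophil markers 2.56%. In the clustering of all barcodes most of that group lay in unnamed clusters. Rod-like clusters 2, 14 and 15 held 19, 3 and 23 of its barcodes, and neutrophil-like cluster 5 held 2. The name of this group therefore rests on the way the barcodes were clustered.

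Rod-like barcodes above 10% had more Gnat1 and less Malat1 than rod-like barcodes at or under 10%, in both libraries. Gnat1 stood at 5953 CPM above and 3927 CPM at or under 10% in NRS (log2 ratio 0.60, 0.58 to 0.62) and at 4635 and 2946 CPM in aCXCR2 (0.65, 0.58 to 0.73). Without the barcodes present in both libraries its log2 ratio was 0.79 in NRS and 0.61 in aCXCR2. Malat1 stood at 18069 and 29788 CPM in NRS (-0.72) and 17968 and 38451 CPM in aCXCR2 (-1.10), and without shared barcodes at -0.91 and -1.06. Neat1 was lower above 10% in NRS, at 61.5 against 110.1 CPM (-0.84), and in aCXCR2 at 52.6 against 76.4 CPM, with an interval that reached 0 (-0.54, -1.15 to 0.05). Rod-like barcodes above 10% numbered 796 and 129, with median depths of 4032.5 and 1241 nuclear-gene UMIs, against 784 and 201 barcodes at 3418 and 3706. The aCXCR2 depth depended on shared barcodes. From 10 to 15% mitochondrial its median was 886 UMIs with them and 4231.5 without.

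The levels moved step by step with the mitochondrial share over the middle of the range in NRS rods, and Malat1 moved less evenly in aCXCR2 rods. In rod-like NRS barcodes Malat1 took a median of 6.05% of nuclear-gene UMIs at or under 2.5% mitochondrial, 4.02% from 2.5 to 5%, 3.14% from 5 to 7.5%, 2.41% from 7.5 to 10%, 1.6% from 10 to 15%, 1.10% from 15 to 20% and 0.213% from 20 to 30%. The decline was therefore already present below the 10% limit. In rod-like aCXCR2 barcodes the median Malat1 share was 3.55, 4.07, 3.90, 2.84, 1.33, 1.05 and 0.223% in the same ranges, with 18 to 64 barcodes in each. Without the barcodes present in both libraries the range from 10 to 15% kept 34 of 64 aCXCR2 barcodes, and its median Malat1 share was 0.830%. The median was then 1.31% from 15 to 20% (15 barcodes) and 0.201% from 20 to 30% (21 barcodes), so these steps did not all go down. In NRS rods the median fell by more than the summed level of Malat1, which went from 60618 CPM at or under 2.5% to 18595 CPM from 20 to 30%.

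Gnat1 followed the opposite course in NRS rods. Its summed level was 2559 CPM at or under 2.5%, 4595 CPM from 7.5 to 10%, 5199 CPM from 10 to 15%, 6730 CPM from 15 to 20% and 7125 CPM from 20 to 30%, and it was 6672 CPM from 50 to 70% (22 barcodes) and 4713 CPM above 70% (20 barcodes). In aCXCR2 rods Gnat1 was 1773 CPM at or under 2.5%, 2210 CPM from 2.5 to 5%, 3404 CPM from 5 to 7.5%, 3573 CPM from 7.5 to 10%, 4754 CPM from 10 to 15%, 5162 CPM from 15 to 20%, 3887 CPM from 20 to 30%, 5393 CPM from 30 to 50% (11 barcodes) and 1786 CPM from 50 to 70% (11 barcodes).

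**Figure D4:**
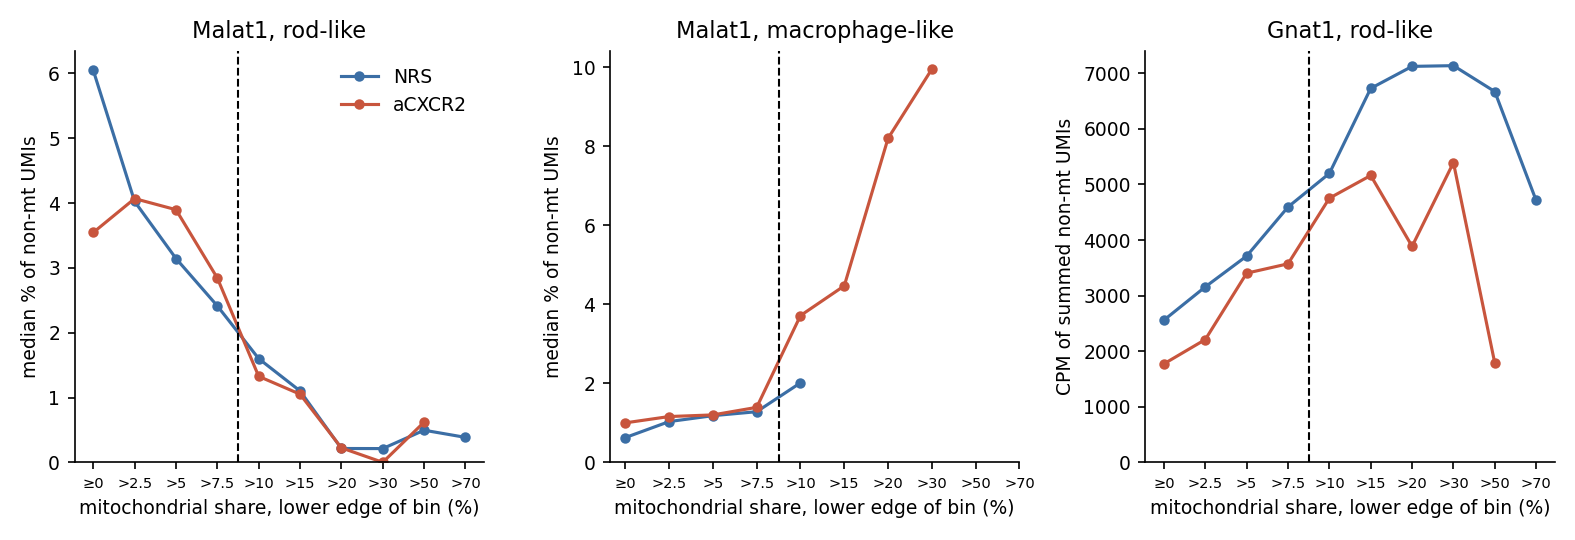
The plot of levels along the mitochondrial share gives the median Malat1 percentage of nuclear-gene UMIs in rod-like (left) and macrophage-like barcodes (middle) and the CPM of Gnat1 in rod-like barcodes (right) for each range of the mitochondrial share with at least 10 barcodes (horizontal axis, labelled by its lower edge), with 1 line per library and a dashed line at 10%. In NRS rods the Malat1 median goes from 6.05% in the lowest range to 0.213% from 20 to 30%, while in aCXCR2 macrophage-like barcodes it goes from 1.0% to 9.96% from 30 to 50%.

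Few rod transcripts were far apart. In NRS 1 gene of 4124 was at least 2-fold higher above 10% (0.0242%), and 5 were at least 2-fold lower (0.121%). In aCXCR2, where fewer barcodes were summed, 18 of 4384 were higher (0.411%) and 33 lower (0.753%). Without the barcodes present in both libraries the numbers were 1 and 9 in NRS and 24 and 59 in aCXCR2. Of 3957 genes measured in both libraries, none was at least 2-fold higher in both and Itga4, an integrin subunit gene, was at least 2-fold lower in both (log2 ratios -1.05 and -1.14, the latter from 18 UMIs above 10%).

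The genes furthest apart in the same direction in both libraries were of mixed function. On the higher side were the heat shock gene Hspa1b (0.78 in NRS and 1.08 in aCXCR2), the monocarboxylate transporter gene Slc16a1 (0.62 and 0.87) and Gnat1 (0.60 and 0.65). The rod sodium, calcium and potassium exchanger gene Slc24a1 had 0.64 and 0.59. Rbp3, the retinoid carrier of the space between photoreceptors and pigment epithelium, had 0.56 and 0.86. Reep6 had 0.74 and 0.55, and Abca4, which encodes a retinoid transporter of the outer segment discs, 0.57 and 0.53. On the lower side stood Malat1, the interferon-induced gene Ifit1 (-0.68 and -0.83), Mir124a-1hg, the host transcript of a neuronal microRNA (-0.64 and -0.83), and Pnn, which encodes a nuclear protein of splicing (-0.62 and -0.76). Gnb2, Cspp1, C2cd5, Leng8 and Zfp950 made up the 10, at -0.58 to -0.66 in NRS and -0.58 to -0.97 in aCXCR2. Hspa1b turned within the class, at 1.23 in cluster 2 and -0.87 in cluster 15 of NRS.

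Gene lists place these differences beside all genes. Of 8981 genes with at least 10 CPM on 1 side in NRS rods, 2657 had a positive log2 ratio and the median was -0.11. In aCXCR2 4028 of 9100 were positive and the median was -0.06. Of 19 phototransduction genes 18 had a positive ratio in NRS (median 0.35) and 16 in aCXCR2 (0.24). Over 1.5-fold higher were 5 of the 19 in NRS and 3 in aCXCR2, where 0.523% and 7.11% of all genes were. Nrl, the transcription factor that sets rod fate, stood at 0.66 and 0.42, and Sag at 0.22 and 0.06. The phototransduction genes overlap the rod markers that named the clusters.

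Of the nuclear genes of oxidative phosphorylation, 25 of 28 had a positive log2 ratio to nuclear-gene UMIs in NRS rods above 10% (median 0.15) and 26 of 28 in aCXCR2 (0.14). All UMIs as the denominator lower every gene alike, so that 8 and 6 of the 28 then had a positive ratio (medians -0.03 and -0.08), with the median of all genes at -0.29 and -0.28. Of the cytosolic ribosomal protein genes 23 of 23 were positive in NRS (median 0.15), and 6 of 23 with all UMIs. The 3 measured nuclear-retained RNAs had negative ratios in both libraries under each of the 3 scalings. Immediate early genes, which respond quickly to stimulation and tissue handling, had negative ratios for 15 of 15 in NRS (median -0.40), with Jun at 133.4 against 250.9 CPM (-0.91) and Junb at -0.48. In aCXCR2 9 of 14 were negative (median -0.30), and Egr1 went the other way, at 143.5 against 43.5 CPM (1.72). Integrated stress response genes were negative in 9 of 10 in NRS (median -0.42) and 6 of 10 in aCXCR2 (-0.20).

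Cluster 15 showed the Malat1 difference most clearly. In its NRS barcodes Malat1 stood at 14207 CPM above and 40459 CPM at or under 10% (log2 ratio -1.51), Neat1 was at -1.82, and among 4022 genes 7 (0.174%) lay 2-fold or more higher and 154 (3.83%) lower. Gnat1 had a log2 ratio of 0.51 in it. In cluster 2 Malat1 was at 19565 and 28312 CPM in NRS (-0.53), with 3 of 4162 genes higher (0.0721%) and 1 lower (0.024%). In the shallow cluster 14 Malat1 was at -0.58 in NRS but at 0.44 in aCXCR2, where 67 barcodes above 10% were summed.

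In the shared clustering, macrophage-like aCXCR2 barcodes had more Malat1 above 10% than at or under it. This class leaves out cluster 8, which held 147 of the 172 barcodes of the Fabp5-led group, where Malat1 took a median of 0.669%. The 81 aCXCR2 barcodes above 10% had a median of 5859 nuclear-gene UMIs and 21.7% mitochondrial, against 29606 UMIs and 4.05% in the 1495 at or under it. Malat1 stood at 49672 against 12782 CPM (log2 ratio 1.96), Neat1 at 1849 against 512.1 CPM (1.85), and Kcnq1ot1, another nuclear-retained RNA, at 137.1 against 35.7 CPM (1.94). The median Malat1 share was 1.16% of nuclear-gene UMIs from 2.5 to 5% mitochondrial (1183 barcodes), 1.39% from 7.5 to 10% (34), 3.72% from 10 to 15% (29), 8.21% from 20 to 30% (17) and 9.96% from 30 to 50% (19). In NRS the same median was 1.03% from 2.5 to 5% (216) and 2.01% from 10 to 15% (12 barcodes).

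Messages of the translation machinery and of the cytosol were lower in the same macrophage-like barcodes. All 23 cytosolic ribosomal protein genes were lower, with a median log2 ratio of -1.09, and all 23 were over 1.5-fold lower, where 13.1% of all genes were. Rps27 stood at 759.2 against 1820 CPM (-1.26) and Rpl41 at 1477 against 2839 CPM (-0.94). Summed, these genes took 4.27% of nuclear-gene UMIs from 2.5 to 5% mitochondrial and 1.28% from 30 to 50%. The median was -0.76 for oxidative phosphorylation genes of the nucleus, 27 of 28 being lower, and -0.83 for cytosolic housekeeping genes, 12 of 13 being lower, with Actb at -0.48 and the ferritin genes Fth1 at -0.82 and Ftl1 at -0.83. All 23 ribosomal protein genes were lower under each of the 3 scalings.

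Macrophage identity genes were spread around 0. Apoe, the lipid carrier apolipoprotein E, stood at 21011 against 14106 CPM (0.57), the colony-stimulating factor receptor gene Csf1r at 0.43, the complement gene C1qa at 0.35, and Mrc1 at 412.7 against 206.3 CPM (1.0). Cd74 was at -0.10, Arg1, arginase, at -0.60 and Lyz2 at -0.48. At 50 CPM or more on 1 side, 3661 genes were measured, and 558 (15.2%) lay 2-fold or more higher and 206 (5.63%) lower, but this split turned with the scaling, to 101 higher and 716 lower with TMM factors and 200 and 437 with all UMIs. The median of all 8228 genes at 10 CPM or more was 0.37, and -0.10 with TMM factors.

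The named genes at the ends of the macrophage-like comparison were of mixed function. Gpx3, a secreted glutathione peroxidase, was highest at 52.4 against 8.07 CPM (2.70, 34 UMIs above 10%), followed by the long noncoding RNA Lncpint (2.40), Ms4a14 (2.25), Slc26a11 (2.08), Trpm2, a calcium channel gated under oxidative stress (2.08), Snapc3 and Lilrb4a (2.04 each), Lars2, the mitochondrial leucyl-tRNA synthetase, at 482 against 119.3 CPM (2.01), and the stress-induced genes Gdf15 and Fosb (1.98 each). Lowest was the haemoglobin gene Hbb-bs, with 2 UMIs above 10% (3.08 CPM) against 115.2 CPM at or under it, a log2 ratio with an interval of -8.27 to -3.37. Hbb-bs was found in 1.23% of the barcodes above and 6.56% of those at or under 10%, so few barcodes hold it and this interval is too narrow. The survival genes Bcl2a1d (-2.27) and Bcl2a1a (-1.89), near-identical copies whose counts may be split, the chromatin gene Hmgn2 (-1.85), the death-promoting gene Bad (-1.77), Mrpl34 (-1.75), S100a4 (-1.73), the neutrophil gene Retnlg (-1.69), Rpl10-ps3 (-1.69) and Rpl35 (-1.62) followed.

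Neutrophil-like barcodes above 10% differed less from the rest of their class. The 66 aCXCR2 barcodes had a median of 7277 nuclear-gene UMIs against 7676 in the 2163 at or under 10%. S100a8 stood at 91900 against 86184 CPM (0.09), Csf3r, the G-CSF receptor gene, at 1916 against 1503 CPM (0.35), Cxcr2, the receptor named in the aCXCR2 label, at 1088 against 861.5 CPM (0.34), and Ly6g at 130.8 against 135.8 CPM (-0.05). Malat1 was at 19895 against 20146 CPM (-0.02), so neither the rod nor the macrophage-like difference was seen in it. Among 2484 genes, 22 (0.886%) lay 2-fold or more higher and 32 (1.29%) lower.

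The 4 haemoglobin genes Hbb-bs, Hba-a1, Hba-a2 and Hbb-bt were among the 10 lowest in neutrophil-like barcodes above 10%. Hbb-bs had 1 UMI above 10% (1.95 CPM) against 347.6 CPM at or under it, a log2 ratio with an interval of -12.8 to -5.00. It was found in 1.52% of the barcodes above and 3.61% of those at or under 10%. The interval takes UMIs as independent and is too narrow for a gene held by few barcodes. Hba-a1 had 1 UMI against 94.6 CPM, Hba-a2 2 UMIs against 78.6 CPM, and Hbb-bt none against 88.0 CPM, at least 15-fold lower when set against a floor of 3 UMIs over the group. Ngp, a specific granule protein of immature neutrophils, stood at 11.7 against 144.7 CPM (-3.63). Eif1ax (-1.69), the coagulation factor gene F10 (-1.50), the stefin gene Stfa1 (-1.39), Swi5 and Polr2g (-1.39 each) completed the 10. In the other direction stood Inhba, an activin subunit (2.28), Zbtb20 (2.25), the serum amyloid gene Saa2 (2.22), Lgals1 (1.87), the phosphatase gene Dusp2 (1.70), Lgmn (1.69), Mllt6 (1.56), Selenop (1.53) and Zswim4 (1.41).

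Rod markers were low in neutrophil-like barcodes on both sides of the limit, the 19 together summing to 566.4 CPM above and 454.5 CPM at or under 10%. All 23 ribosomal protein genes were lower (median -0.46) and 27 of 28 oxidative phosphorylation genes (-0.38), against a median of -0.04 over all genes at 10 CPM or more.

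The make-up of the mitochondrial RNA itself, which the rule did not use, differed between classes, and less across the 10% limit except in neutrophil-like aCXCR2 barcodes. In all NRS barcodes above 10%, mt-Atp6, an ATP synthase subunit, made up 19.8% of mitochondrial UMIs, mt-Co3 16.8%, mt-Co2 14.2%, mt-Co1 12.7%, mt-Cytb 12.6%, mt-Nd4 7.10%, mt-Nd2 6.74%, mt-Nd1 5.68% and mt-Nd3 2.94%. In aCXCR2 the same genes were at 18.9, 18.6, 15.8, 15.8, 10.501, 6.39, 4.91, 5.24 and 2.82%. The other 4 genes were under 1% each, mt-Nd5 at 0.815 and 0.662%, mt-Nd4l at 0.365 and 0.240%, mt-Atp8 at 0.175 and 0.110%, and mt-Nd6, encoded on the other strand, at 0.0373% (1347 of 3614473 mitochondrial UMIs) and 0.0365%. These are shares of 3′ counts and do not compare molecules per cell between genes.

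Rods had little mt-Co1 and much mt-Cytb, and leukocytes the reverse. mt-Co1 was 9.89% of mitochondrial UMIs in rod-like NRS barcodes above 10% and 10.55% in those at or under it, and 10.3 and 8.15% in aCXCR2. In macrophage-like barcodes it was 19.0% above and 21.3% at or under 10% in NRS, and 19.3 and 20.6% in aCXCR2. mt-Cytb was 14.1 and 12.7% in rod-like barcodes above 10% of NRS and aCXCR2, and 8.27 and 8.26% in macrophage-like ones. In neutrophil-like aCXCR2 barcodes mt-Co1 was 15.9% above and 22.6% at or under 10%, the largest difference across the limit for a named class with at least 50 barcodes on both sides, while in NRS, with 27 barcodes above 10%, it was 14.9 and 15.5%. Without the barcodes present in both libraries mt-Co1 in rods above 10% was 9.59% in NRS and 10.1% in aCXCR2. The group led by Gsto1 and Muc4 stood furthest out, with mt-Co1 at 30.4% in NRS and 42.2% in aCXCR2 and mt-Nd1 at 2.58 and 1.12%.

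**Figure D5:**
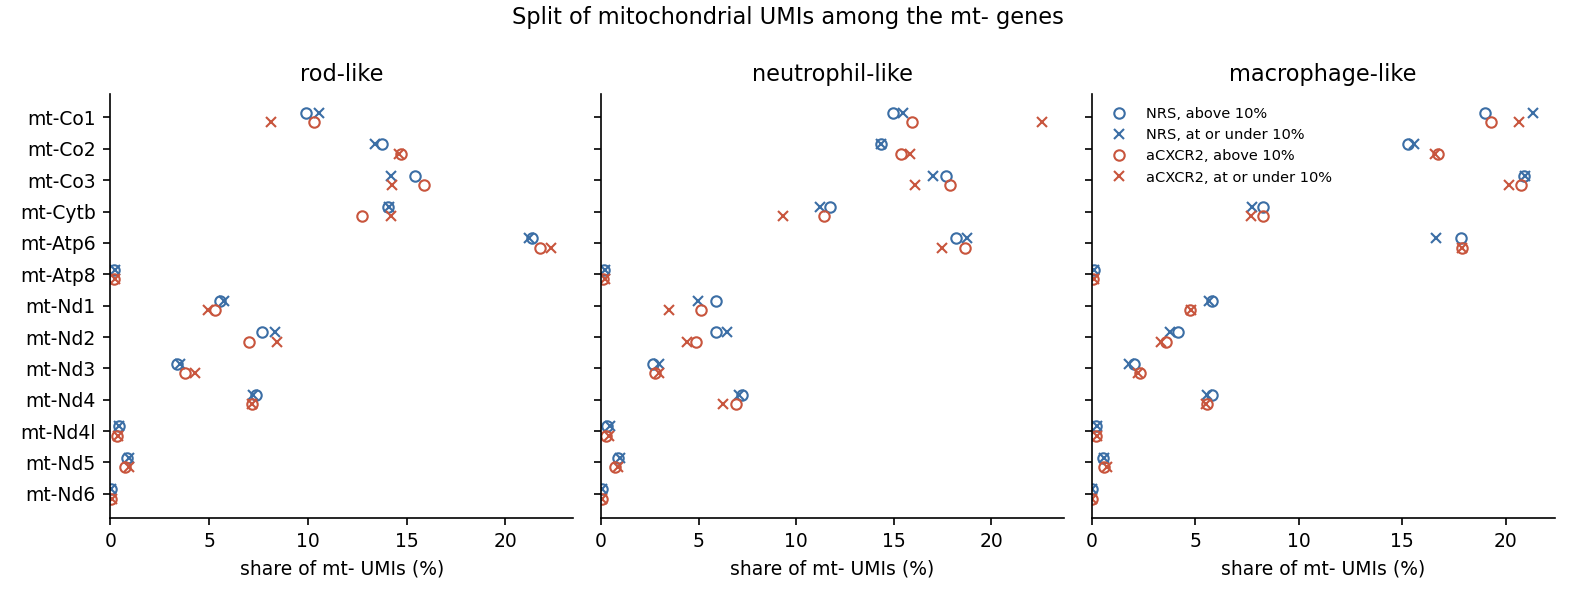
The plot of mitochondrial composition shows the percentage of mitochondrial UMIs (horizontal axis) in each of the 13 mt- genes (rows) for rod-like, neutrophil-like and macrophage-like barcodes, with circles above 10%, crosses at or under 10% and a colour per library. For mt-Co1 the rod-like barcodes lie between 8.15 and 10.55%, the macrophage-like ones between 19.0 and 21.3%, and the neutrophil-like aCXCR2 barcodes at 15.9% above and 22.6% at or under the limit.

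Between the libraries, rod-like barcodes above 10% differed in 42 of 4157 genes by at least 2-fold, 21 higher in aCXCR2 (0.505%) and 21 lower (0.505%). Without the barcodes present in both libraries 47 were higher and 38 lower. Myeloid and interferon-linked genes were among the higher ones. Pf4, platelet factor 4, which macrophages here also express, stood at 68.2 CPM in aCXCR2 and 13.5 CPM in NRS (log2 ratio 2.33), the acute-phase gene Saa3 at 558 and 135 CPM (2.05), Ifitm1 at 81.0 and 24.7 CPM (1.71), the immunoproteasome gene Psmb8 at 121 and 43.1 CPM (1.49) and the class I gene H2-Q7 at 1.45. In rods at or under 10% the log2 ratios of these genes were 2.89, 2.45, 1.75, 0.98 and 1.39, so they were higher in aCXCR2 on both sides of the limit. Ifitm3 was at 1.49 above and 1.09 at or under 10%, and Wfdc17 at 1.31 and 1.65. Egr1 differed between the sides, at 1.52 above and -0.45 at or under 10%, as did the stefin gene Stfa2l1, at 3.08 and -0.74. Stfa2 had 58 UMIs above 10% in aCXCR2 and none in NRS.

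Lower in aCXCR2 rods above 10% were Hbb-bs (4 UMIs against 111.2 CPM, -4.29) and the overlapping pair Vax2 and Vax2os. Hbb-bs was found in 3.02% of these NRS barcodes and 3.10% of the aCXCR2 ones, so its ratio rests on the counts of few barcodes. Vax2, a homeobox gene that patterns the ventral retina, stood at 12.8 CPM in aCXCR2 and 97.4 CPM in NRS (-2.93, from 9 UMIs), and its antisense transcript Vax2os at 68.2 and 573.5 CPM (-3.07). In rods at or under 10% they were at -0.66 and -1.78. These genes overlap, and no source used here says whether their reads were told apart by strand. Rlbp1 (-2.85), Wdfy1 (-2.14), the chemokine gene Ccl3 (-1.99), Hist3h2ba (-1.62), Pcsk2 and Hist3h2a (-1.47 each) and Mrps25 (-1.40) completed the 10. Gnat1 stood at -0.36, or -0.45 without shared barcodes. Malat1 was alike, at -0.01 (-0.03 to 0.02). The libraries filled the rod clusters unequally, with cluster 15 holding 243 of 796 NRS and 6 of 129 aCXCR2 rods above 10%, and its part in the Gnat1 ratio was not tested.

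Single barcodes show the range behind these sums. The deepest rod-like NRS barcode above 10% had 200305 UMIs at 10.8% mitochondrial, with 2515 Sag and 582 Gnat1 UMIs, and 10126 genes. The deepest in aCXCR2 had 105862 UMIs at 11.7%, with 1313 Malat1 and 545 Gnat1 UMIs. Both of these sequences were present in both libraries, and doublets were not removed. The deepest barcode of the lens-like class in NRS had 187 UMIs of Gnat1 and 6 of Crybb2, and so went against its class name. The deepest barcode with under 200 nuclear-gene UMIs, in aCXCR2, had 15721 UMIs at 98.9% mitochondrial, of which 2347 were mt-Co1 and 172 came from nuclear genes.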

How the data were processed

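Single-cell RNA was measured in 1 library per group. The deposited counts were whole UMI counts per gene and barcode in filtered matrices made by the authors, per the file headers with software version 3.0.0, and Cell Ranger and Seurat are listed, with no version, in the submitters' processing notes. Those notes list the human build GRCh38 while the gene identifiers are of mouse, and which mouse build served was not given in the sources. The features numbered 31053, of which 30934 were in GENCODE vM21.

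Barcodes with over 10% of UMIs in mt- genes were set against the rest. CPM used nuclear-gene UMIs as the total, counts were summed per class, and a log2 ratio was taken for genes with at least 50 CPM (10 CPM for gene lists) on 1 side. Intervals are exact 95% binomial (Clopper-Pearson), Poisson or conditional ratio intervals and cover counting error only. Because each group is 1 library, no test was made. Barcodes with at least 200 nuclear-gene UMIs (7216 NRS and 5384 aCXCR2) were clustered without mt- genes (2000 variable genes, 30 components, 15 neighbours, Leiden resolution 1) with scanpy 1.11.5 and leidenalg 0.10.2. A cluster was called X-like from its marker list by a scoring rule set after the data were seen (score at least 0.3, at least 3 markers detected). Scrublet called 1 doublet in each library and so has not worked. No doublets were removed from the values in the text, and removing 417 NRS and 232 aCXCR2 barcodes by another rule was an alternative. Named genes were all mt- genes, the markers of the 4 main identities and Malat1, the 10 largest and 10 smallest ratios per class (mt-, Gm and Rik genes left out, ranked by the ratio nearer 0 where both libraries had the class), and up to 4 members per gene list. The members and lists were chosen with earlier results of these data known. Scripts were tested on simulated data. For the TMM alternative edgeR 4.0.16 was run under R 4.3.3. All else ran under Python 3.11.15 with pandas 2.3.3, scipy 1.17.1, numpy 2.4.6 and, for plots, matplotlib 3.10.9. The alternatives changed the mitochondrial limit, the minimum depth, the clustering, the scaling and the CPM minimum. Some genes that the naming rule takes are not reported here.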

Additional observations from a re-analysis of the deposited data

Results flagged for a closer look

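For 9 genes the ratio of barcodes above 10% to those at or under 10%, over all barcodes, had opposite signs in the libraries. Each group is 1 library, so the difference was not tested for any of them. Of the neutrophil markers, S100a9, a calprotectin subunit, had a log2 ratio of -1.81 in NRS and 0.04 in aCXCR2. The G-CSF receptor gene Csf3r had -1.79 and 0.22, and the chemokine receptor gene Cxcr2 had -2.36 and 0.26. The decoy interleukin-1 receptor gene Il1r2 had -1.90 and 0.17, and Hdc, which encodes the enzyme that makes histamine, had -1.53 and 0.62. The receptor gene Trem1 had -1.66 and 0.21, and the lipolysis inhibitor gene G0s2 had -1.57 and 0.55. The nuclear-retained RNAs Malat1 and Neat1 had -0.12 and -0.87 in NRS, and 1.07 and 0.77 in aCXCR2.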

How the results depend on the processing

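No paired analysis was possible because each group is 1 library. Leaving out the barcodes present in both libraries, and clustering the barcodes above 10% by themselves, were chosen after seeing the data. Of the summary values 88 moved and 80 did not, and the cause was not tested. None was labelled reversed, but shares and numbers of genes have no sign to change, so the label could not apply to them. In macrophage-like aCXCR2 barcodes the split of genes at least 2-fold apart did turn. It went from more genes higher to more genes lower with TMM factors and with all UMIs. The log2 ratios of the summed marker lists, the mt-Co1 share and the thinned gene numbers stayed within the tolerance for values that did not move, under every alternative run. That does not make them unchanged. In aCXCR2 barcodes above 10%, 2549616 of 3918417 UMIs came from nuclear genes, so all UMIs as the denominator lower every list ratio there. The near-equal neutrophil sums of aCXCR2 therefore rest on nuclear-gene UMIs as the total. With a limit of 5% the share of barcodes above it was 36.0% in NRS and 23.0% in aCXCR2, and with a limit of 20% 13.1% and 9.12%. With at least 500 nuclear-gene UMIs the share above 10% was 19.1% and 7.98%, with at least 200 genes 21.2% and 9.79%, and with at least 1000 UMIs 10.2% in aCXCR2.

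Among barcodes above 20%, rod-like ones were 33.1% in NRS and 9.29% in aCXCR2, neutrophil-like ones 0.628% and 4.74%, and macrophage-like ones 8.30% in aCXCR2. At resolution 0.5 rod-like barcodes were 52.0% in NRS, and macrophage-like ones 7.74% in NRS and 27.1% in aCXCR2. At resolution 2 these values were 51.4%, 7.38% and 26.4%. With libraries clustered separately rod-like barcodes were 25% in aCXCR2, and macrophage-like ones 4.17% in NRS and 7.93% in aCXCR2. By the largest marker share, rod was 62.4% in NRS, neutrophil 7.20% and 23.2%, and macrophage 11.7% and 26.7%. Clustered by themselves, the barcodes above 10% were rod-like in 41.7% and 15.2%, neutrophil-like in 13.1% in NRS, and macrophage-like in 9.62% and 30.3%. With at least 1000 UMIs, neutrophil-like ones were 11.6% and macrophage-like ones 15.2% in aCXCR2. Without shared barcodes rod-like ones were 13.7% in aCXCR2.

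The numbers of genes at least 2-fold apart moved most. In NRS rods (1 higher and 5 lower) they were 2 higher with TMM factors, 0 and 10 with all UMIs, 18 and 54 with a limit of 20%, 3 and 17 with the mean of barcode shares, and on the lower side 10 at 20 CPM, 2 at 200 CPM and 9 without shared barcodes. In aCXCR2 rods (18 and 33) they were 6 and 109 with all UMIs, 85 and 219 at 20 CPM, 2 and 3 at 200 CPM, 155 and 271 with a limit of 20%, 282 and 373 with the mean of barcode shares, and 59 lower without shared barcodes. In neutrophil-like aCXCR2 barcodes (22 and 32) they were 13 higher with TMM factors, 6 and 174 with all UMIs, 113 and 158 at 20 CPM, 2 and 6 at 200 CPM, 93 and 94 with a limit of 20%, and 267 higher with the mean of barcode shares. In macrophage-like aCXCR2 barcodes (558 and 206) they were 101 and 716 with TMM factors, 200 and 437 with all UMIs, 1089 higher at 20 CPM, 77 and 98 at 200 CPM, 1179 and 510 with a limit of 20%, and 1090 and 446 with the mean of barcode shares. Between the libraries in rods above 10% (21 and 21) they were 92 and 86 at 20 CPM, 3 and 3 at 200 CPM, 343 and 177 with a limit of 20%, 323 and 142 with the mean of barcode shares, and 47 and 38 without shared barcodes. Neat1 in neutrophil-like aCXCR2 barcodes (0.12) reversed to -0.27 with all UMIs and to -0.12 with a limit of 20%.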
